A study of Rattus norvegicus with 3 samples.

Results

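The genes described here are 10 genes of the pigment epithelium and of melanin synthesis, *Pmel*, *Tyr*, *Tyrp1*, *Dct*, *Mlana*, *Slc45a2*, *Mitf*, *Rpe65*, *Ttr* and *Best1*, out of 18425 genes in the expression table of neonatal rat retina. They were picked by name, with the knowledge that several of them were high in the saline library, so the saline values below are a description and carry no test. Retinas came from wild-type Sprague-Dawley rats that got 1 μl into the vitreous at P1 and were harvested at P4. The Buffer group got citrate buffer at pH 4.5, the Saline group got saline, and the STZ group got 10 μg of streptozotocin (STZ), a DNA-alkylating compound dissolved in the same kind of citrate buffer. The study describes STZ given to right eyes and citrate buffer to the left eyes of the same rats. Whether the sequenced Buffer and STZ retinas were such pairs, and which eyes got saline, is not stated. There was 1 library per group, and how many retinas went into each is not given in the sources used here. The spread between animals is therefore unknown, no difference has a replicate check, and no p-values are given. The libraries held 21992702 (Buffer), 21977843 (Saline) and 22031249 (STZ) estimated reads, and the 10 genes had whole-number counts in each of them. Neural retina genes were abundant in all 3 libraries: *Crx*, a photoreceptor transcription factor, stood at 384, 349 and 409 FPKM (a read level corrected for transcript length and library depth) for Buffer, Saline and STZ in that order.

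The retinal pigment epithelium (RPE) is a single cell layer behind the neural retina, and it continues forward into the ciliary and iris epithelia. Its cells, like melanocytes of the choroid and iris stroma, make melanin in melanosomes. Tyrosinase (*Tyr*) starts melanin synthesis from tyrosine, *Dct* and *Tyrp1* encode later enzymes of eumelanin synthesis, *Pmel* forms the fibrils on which melanin is laid down, and the transcription factor MITF switches on many of these genes. Sprague-Dawley rats are albino and carry a tyrosinase that does not work, so their pigment cells can transcribe these genes without making melanin. *Rpe65* and *Best1* belong to the mature RPE, where RPE65 is the isomerase of the visual cycle and bestrophin-1 is a chloride channel. *Ttr* encodes transthyretin, a carrier of thyroid hormone and of the retinol-binding protein.

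The promoters of the 5 genes that passed the upper fold threshold (given below) in Saline against Buffer are shown first. MITF is known to bind the letters CATGTG, the core of the M-box, before several pigment genes. The RefSeq promoter table (build GRCr8, reference strain BN) held 9 of the 10 genes, and *Slc45a2* was not among them. The 250 bases before the annotated start are printed 5′ to 3′ on the strand of the gene, with CATGTG, or its reverse complement CACATG, in capitals. The windows lie at chr1:150622858-150623107 (minus strand) for *Tyr*, chr5:100326875-100327124 (plus strand) for *Tyrp1*, chr15:101508030-101508279 (minus strand) for *Dct*, chr1:236882825-236883074 (plus strand) for *Mlana* and chr7:1722993-1723242 (plus strand) for *Pmel*.
Tyr: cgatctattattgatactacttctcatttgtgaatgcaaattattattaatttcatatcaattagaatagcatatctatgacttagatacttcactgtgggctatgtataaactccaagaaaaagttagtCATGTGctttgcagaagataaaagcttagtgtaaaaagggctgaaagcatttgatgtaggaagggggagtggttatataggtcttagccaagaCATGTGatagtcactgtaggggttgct
Tyrp1: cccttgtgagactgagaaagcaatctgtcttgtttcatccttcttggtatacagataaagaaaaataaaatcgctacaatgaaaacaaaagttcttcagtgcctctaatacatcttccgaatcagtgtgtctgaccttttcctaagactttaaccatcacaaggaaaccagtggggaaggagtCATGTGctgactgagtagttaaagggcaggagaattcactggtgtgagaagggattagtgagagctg
Dct: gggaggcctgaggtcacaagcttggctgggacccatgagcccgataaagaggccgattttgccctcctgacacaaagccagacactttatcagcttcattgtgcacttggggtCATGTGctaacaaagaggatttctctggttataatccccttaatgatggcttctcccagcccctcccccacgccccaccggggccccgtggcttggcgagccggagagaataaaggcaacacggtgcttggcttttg
Mlana: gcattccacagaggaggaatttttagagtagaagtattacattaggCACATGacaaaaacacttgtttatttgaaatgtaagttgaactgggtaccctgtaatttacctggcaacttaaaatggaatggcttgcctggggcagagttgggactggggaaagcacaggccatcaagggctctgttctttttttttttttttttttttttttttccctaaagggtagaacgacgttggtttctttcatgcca
Pmel: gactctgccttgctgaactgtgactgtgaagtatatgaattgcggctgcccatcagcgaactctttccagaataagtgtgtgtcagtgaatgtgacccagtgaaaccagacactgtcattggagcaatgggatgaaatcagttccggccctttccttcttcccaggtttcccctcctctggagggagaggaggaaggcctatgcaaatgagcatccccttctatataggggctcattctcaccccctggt

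Of the 9 promoters, 4 held the M-box core on either strand: *Tyr*, *Tyrp1*, *Dct* and *Mlana*. The core began 120 and 27 bases before the start of *Tyr*, 67 bases before *Tyrp1*, 137 bases before *Dct* and, on the opposite strand, 204 bases before *Mlana*. In each of the 4 promoters at least 1 match also held the longer word TCATGTG, which contains the core. Among all 33469 rat promoter windows of this length, 12.1% held CATGTG and 3.07% held TCATGTG. Among the 15950 windows of genes in the expression table, the shares were 8.51% and 2.1%. The window of *Pmel* held no M-box match, nor did those of *Mitf*, *Rpe65*, *Ttr* and *Best1*. The letters GGATTA, known as a binding word of OTX homeodomain proteins, were found before *Tyrp1*, *Dct* and *Rpe65*. They were in 6.34% of all windows and in 5.28% of those of genes in the expression table. *Mitf* has several promoters, and the window taken here covers 1 of them. These are matches of letters, and binding was not measured.

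**Figure D1:**
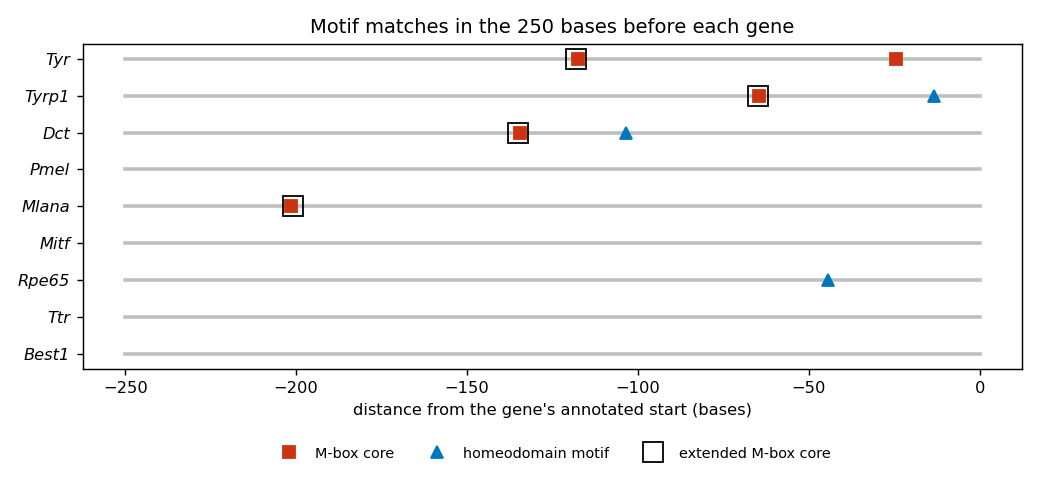
Each grey line is the 250 bases before the annotated start of 1 of the 9 genes with a promoter entry, with distance from the start in bases on the x axis. Red squares mark the 6-base M-box core, open squares the 7-base extended core and blue triangles the homeodomain motif, on either strand. *Tyr*, *Tyrp1*, *Dct* and *Mlana* carry the extended core, and *Pmel* carries no match.

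All 3 melanin enzymes were highest in the Saline library. *Tyr* had 16 reads in Buffer, 118 in Saline and 14 in STZ, an FPKM of 0.26, 1.93 and 0.23. The Saline value stood alone, and the Buffer and STZ values lay within each other's counting intervals. *Tyrp1* had 76, 236 and 81 reads across Buffer, Saline and STZ, an FPKM of 1.41, 4.38 and 1.5. *Dct* had 134, 325 and 173 reads, an FPKM of 3.15, 7.64 and 4.05. For *Dct* the STZ library lay between the others, nearer to Buffer. Following the methods of the study, a fold change was taken as (FPKM + 1)/(FPKM + 1), with a gene counted as higher above an upper threshold of about 1.5 (rounded, the exact figure stands with the processing) and lower below 0.65. Adding 1 draws the fold of a gene with few reads close to 1. In Saline against Buffer it gave 2.33 for *Tyr*, 2.23 for *Tyrp1* and 2.08 for *Dct*. The ratio of a gene's read shares in the libraries, with an exact 95% Clopper-Pearson interval that covers counting error only, spread them further. It was 7.38 (4.36 to 13.3) for *Tyr*, 3.11 (2.39 to 4.08) for *Tyrp1* and 2.43 (1.98 to 2.99) for *Dct*.

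The melanosome proteins were also highest in Saline, at very different levels. *Pmel* had 252, 940 and 240 reads across Buffer, Saline and STZ, an FPKM of 5.02, 18.76 and 4.77. Its Saline value was apart from the others, with a fold of 3.28 against Buffer and a count ratio of 3.73 (3.24 to 4.31). *Mlana*, which encodes the melanosomal membrane protein MART-1, had 4, 16 and 7 reads, a fold of 1.77 and a count ratio of 4.0 (1.29 to 16.5). *Slc45a2*, a melanosomal transporter, had 1, 8 and 2 reads. Its fold of 1.17 is held near 1 by the added 1 FPKM, and its count ratio of 8.01 had an interval of 1.07 to 355, so its size cannot be read at this depth. Around the upper threshold, *Mlana* at 1.77 was the gene just inside and *Slc45a2* at 1.17 the gene just outside.

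Summed over the 6 enzyme and melanosome genes, the Buffer library reached 10.20 FPKM (483 reads), the Saline library 34.27 (1643 reads) and the STZ library 11.20 (517 reads). The sum in Saline was 3.40 times that in Buffer by read share (3.07 to 3.78). *Pmel* made up 49.2% of this sum for Buffer, 54.7% for Saline and 42.6% for STZ. *Dct* made up 30.9%, 22.3% and 36.2%, and *Tyr* 2.55%, 5.63% and 2.05%. The share of *Tyrp1* stayed between 12.8% and 13.8%. The mixture of pigment transcripts in Saline thus held more *Tyr* and *Pmel* and less *Dct* than in either other library. For *Pmel* and *Dct* the shares in Buffer and STZ also differed from each other, and no interval was taken for the shares. In bulk RNA, more pigment cells and more RNA per pigment cell cannot be told apart.

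**Figure D2:**
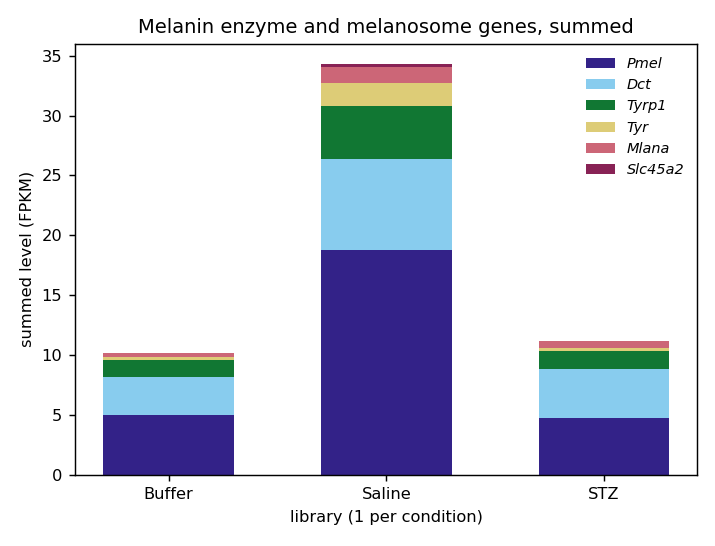
Bars give the FPKM of the 6 melanin enzyme and melanosome genes, stacked, in each library (1 library per condition, so no error bars). The Saline bar reaches 34.27 against 10.20 in Buffer and 11.20 in STZ, and *Pmel* is the tallest part of each bar.

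*Mitf*, the regulator of these genes, did not share their pattern. It had 86 reads in Buffer, 108 in Saline and 112 in STZ, an FPKM of 0.84, 1.06 and 1.12. Its count ratio in Saline against Buffer was 1.26 (0.938 to 1.69), an interval that includes 1. The reads are counted per gene, so the isoforms of *Mitf* that pigment epithelium and melanocytes use cannot be told apart.

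Of the 10 genes, those of the mature RPE were near the detection limit or, for *Ttr*, somewhat lower in Saline. *Rpe65* had 0 reads in Buffer, 2 in Saline and 2 in STZ. A count of 0 allows up to 3 reads, so no count ratio was taken. *Best1* had 5, 5 and 7 reads, with a count ratio of 1.00 in Saline against Buffer (0.23 to 4.35). These counts are too few to show or exclude a ratio of the size seen for *Dct*. *Rpe65* and *Best1* were thus at or near 0 in all 3 libraries, which does not hold for every RPE gene. Among the 10 genes, the high Saline values were those of melanin synthesis and melanosome genes. *Lrat*, which makes the substrate of RPE65, had 2, 16 and 4 reads. *Ttr* was by far the most abundant of the 10 genes per length, at 46.17, 38.67 and 44.01 FPKM for Buffer, Saline and STZ (477, 398 and 456 reads). Its Saline value was the lowest of the 3, with a count ratio of 0.835 against Buffer (0.729 to 0.956) and a fold of 0.841. That fold passed neither threshold. In STZ against Saline the count ratio of *Ttr* was 1.14 (0.997 to 1.31), an interval that includes 1. *Ttr* thus did not share the high Saline values of the melanin genes.

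By FPKM, the order in Saline was *Ttr*, *Pmel*, *Dct*, *Tyrp1*, *Tyr*, *Mlana*, *Mitf*, *Slc45a2*, *Best1* and *Rpe65*. The counting intervals of neighbours overlapped from *Tyr* (1.60 to 2.31) to *Mlana* (0.783 to 2.22) and on to *Mitf* (0.870 to 1.28). They also overlapped among *Slc45a2*, *Best1* and *Rpe65*. In Buffer the order differed, with *Mitf* at 0.84 above *Mlana* at 0.34 and *Tyr* at 0.26. *Pmel* exceeded 44.8% of all genes in Buffer, 68.6% for Saline and 43.5% for STZ, while *Ttr* exceeded 84.5% or more in each library.

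**Figure D3:**
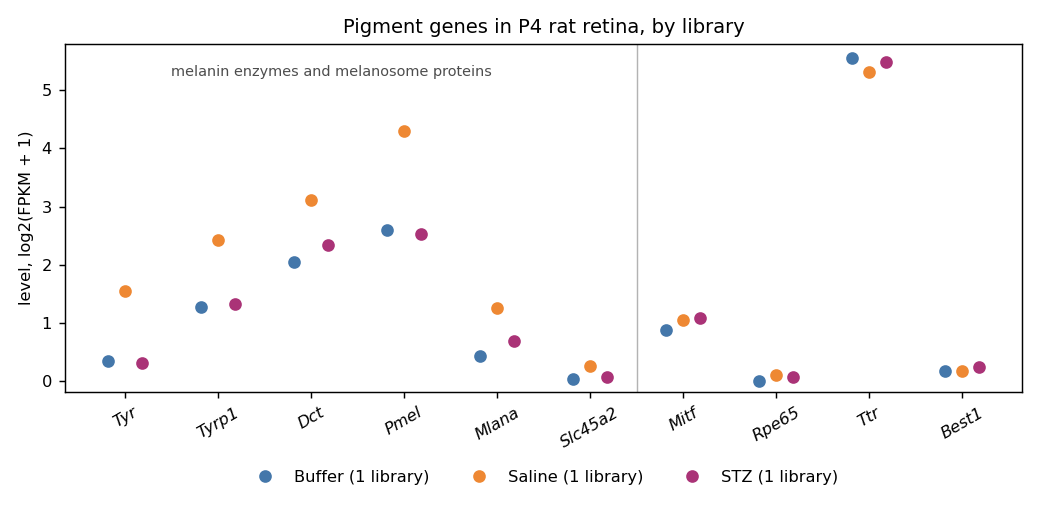
Points give the level of each of the 10 genes as log2(FPKM + 1) in the Buffer, Saline and STZ libraries (1 library per condition). The orange Saline points stand above the others for the 6 genes left of the grey line, from *Pmel* at an FPKM of 18.76 down to *Slc45a2* at 0.19, and below the others for *Ttr*.

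Counted over the list, 5 of the 10 genes passed the upper threshold in Saline against Buffer (*Tyr*, *Tyrp1*, *Dct*, *Pmel* and *Mlana*), where 1.00% of all 18425 genes did. None was below 0.65, where 0.429% of all genes were. By the counting interval 6 of the 10 lay above 1, with *Slc45a2* added, and 1 below 1, *Ttr*, where 13.3% and 9.81% of all genes did. The FPKM was highest in Saline for 7 of the 10 genes, where 33.5% of all genes had their highest value there, and the 7 include *Rpe65* with its 2 reads. The genes were chosen for being high in Saline, so these shares are a description. The median log2 fold was 0.52 over the 10 genes and 0.01 over all genes. In STZ against Saline, 4 of the 10 were below 0.65 and 0 above the upper threshold, where 1.75% and 2.04% of all genes were. By the counting interval the same 4 lay below 1 and 0 above, where 19.5% and 22.1% of all genes did. The lower genes were *Pmel* at 0.292, *Tyr* at 0.420, *Tyrp1* at 0.465 and *Dct* at 0.584, which was just inside the threshold, with *Mlana* at 0.675 just outside. The median log2 fold was -0.37, against 0.00 over all genes. The same 4 genes passed both thresholds, which 0.494% of all genes did. These comparisons share the Saline library and are not independent of each other.

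STZ against Buffer leaves out the Saline library. In it, 0 of the 10 genes passed either threshold, where 2.25% of all genes were above the upper and 1.04% below the lower one, and the median log2 fold was 0.06 against 0.02 over all genes. With 10 genes, counts of 0 lie near these shares and say little. The count ratio was 0.951 (0.793 to 1.14) for *Pmel*, 1.06 (0.768 to 1.47) for *Tyrp1*, 0.873 (0.395 to 1.91) for *Tyr* and 0.954 (0.837 to 1.09) for *Ttr*. *Dct* was the only one of the 10 whose interval left out 1, with a ratio of 1.29 (1.02 to 1.63), where 21.7% of all genes had an interval above 1 and 15.5% one below it. *Mitf* was close to it, at 1.30 (0.973 to 1.74). For *Mlana*, at 1.75 (0.444 to 8.14), and *Best1*, at 1.40 (0.382 to 5.58), the reads were too few to narrow the ratio. Over the 6 enzyme and melanosome genes the ratio of summed reads was 1.07 (0.942 to 1.21).

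**Figure D4:**
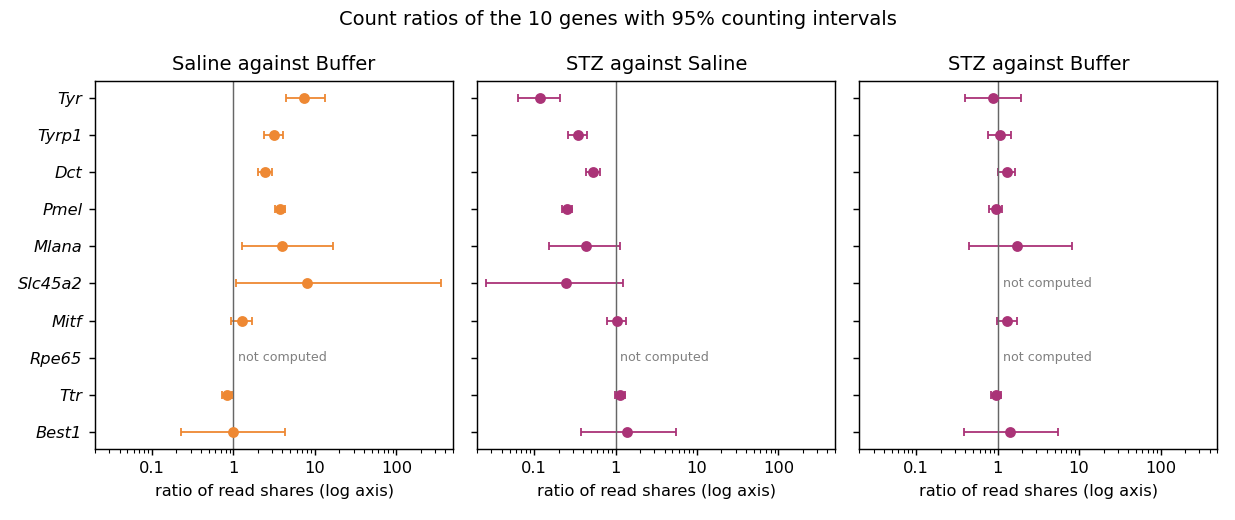
Points give the ratio of read shares between libraries for each of the 10 genes on a log axis, with bars for the 95% counting interval, in Saline against Buffer, STZ against Saline and STZ against Buffer. *Pmel* sits at 3.73, 0.255 and 0.951 in the 3 panels. A ratio was not computed where both counts were 3 or fewer.

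Other pigment genes were grouped by role. The list labelled other melanosome proteins holds 9 genes of melanosomes and, more broadly, of pigment cells. Of these, 4 were higher in Saline than in Buffer and 0 lower, where 1.00% and 0.429% of all genes were. Their median log2 fold was 0.58. *Trpm1*, a cation channel of melanocytes and of retinal ON bipolar cells, had 13, 213 and 19 reads in the same order of libraries, and its Saline to Buffer count ratio was 16.4 (9.38 to 31.3). *Slc7a11*, the cystine transporter that feeds pheomelanin synthesis, had 278, 496 and 281 reads and a fold of 1.58. *Rab38*, a GTPase that routes the melanin enzymes, had 3, 25 and 1 reads and a fold of 1.77. *Gpnmb*, a relative of *Pmel* that macrophages also make, had 106, 285 and 1825 reads, so it was highest in STZ, with a fold of 12.3 against Buffer. *Rab32* also passed in STZ against Buffer, at 2.01, from 22, 53 and 85 reads. *Oca2*, the melanosomal anion channel, had 11, 15 and 2 reads, *Slc24a5*, the melanosomal cation exchanger, had folds of 1.28 and 1.17 against Buffer in Saline and STZ, and *Gpr143* had 5, 7 and 7 reads.

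The machinery that builds and moves melanosomes in many cell types was counted next. Of its 15 genes, 0 passed in any of the 3 comparisons, which lies near the shares of all genes (1.00% above and 0.429% below in Saline against Buffer) and says little. For these 15, the median log2 fold in Saline against Buffer was -0.01, and the highest by mean FPKM, *Ap3d1* of the AP-3 adaptor, had 7618, 7055 and 8096 reads. Of 12 regulators of pigment cells (*Pax3* of the list was not matched), 0 passed in Saline against Buffer and 0 in STZ against Buffer, and *Sox9* alone was below 0.65 in STZ against Saline, at 0.64. *Pax6*, the highest of them by mean FPKM, had 12271, 12506 and 12605 reads. *Sox10*, which marks melanoblasts and Schwann cells of the neural crest, had 24, 29 and 35 reads, a count ratio of 1.21 in Saline against Buffer. *Pax6* and *Kit* are also neural retina genes, and the study stained Sox9 as a marker of Müller glia. This limits *Pax6*, *Kit* and *Sox9* as markers of pigment cells here.

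For the epithelium itself, 0 of 10 retinoid cycle genes passed in Saline against Buffer, again near the shares of all genes. *Rlbp1*, shared by RPE and Müller glia, had 6996, 6571 and 5501 reads. Of 16 genes for surface, channel and secreted proteins of the RPE, 5 were higher in Saline than in Buffer (1.00% of all genes) and 0 lower (0.429%), with a median log2 fold of 0.15 over the 16. They were *Aqp1*, a water channel, with 10, 100 and 7 reads, *Cldn19*, a tight junction claudin, with 1, 42 and 3, *Cdh3*, which encodes P-cadherin, with 19, 87 and 13, *Krt18*, an epithelial keratin, with 29, 67 and 25, and *Kcnj13*, a potassium channel, with 18, 42 and 27. All 5 had Saline as the highest library, but they were named for passing in Saline against Buffer. *Aqp1* and *Cldn19* reached the mean of 10 counts needed for naming through their Saline counts only. *Ezr*, the highest of this list by mean FPKM, had 2142, 2097 and 1881 reads, and in STZ against Buffer 0 of the 16 genes passed.

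**Figure D5:**
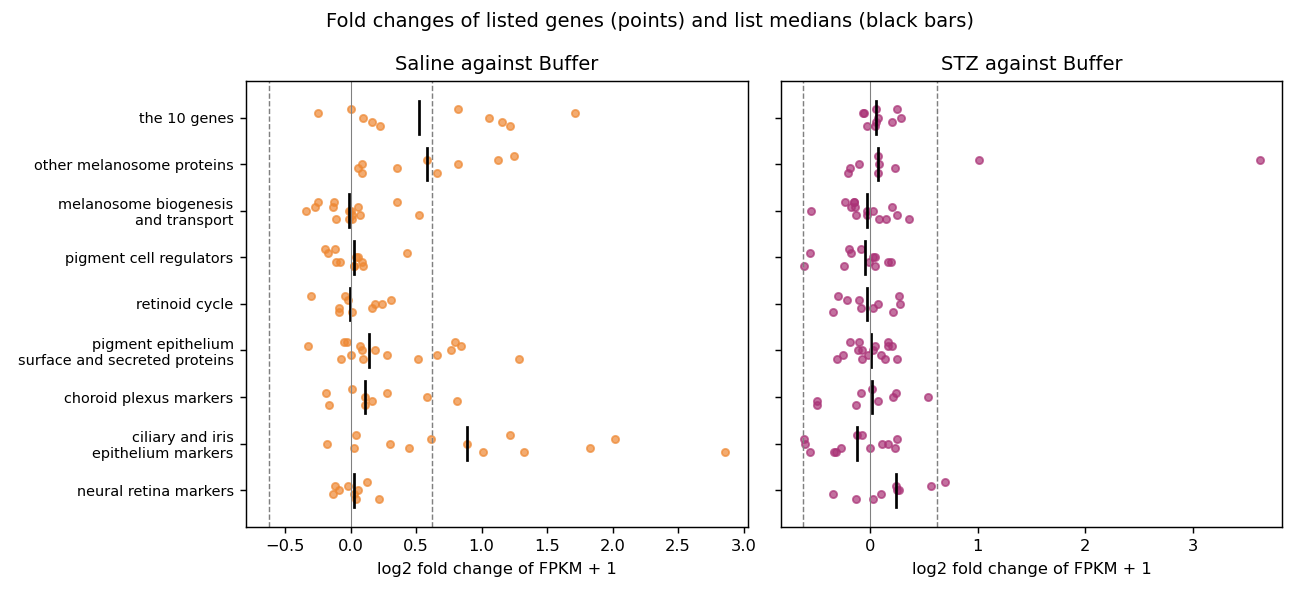
Points give the log2 fold change of FPKM + 1 of single genes in Saline against Buffer (left) and STZ against Buffer (right), black bars the median of each list, and dashed lines the upper and lower thresholds. In Saline against Buffer the medians of the 10 genes (0.52), the other melanosome proteins (0.58) and the ciliary and iris markers (0.89) lie to the right of the other lists plotted, and in STZ against Buffer the far right point is *Gpnmb*. The lens list (median 0.76 in Saline against Buffer, with genes beyond *Gpnmb* in STZ against Buffer) and the other lists of cell type markers are not plotted.

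Markers of neighbouring tissues moved with the pigment genes in part. Of 13 ciliary and iris epithelium markers, 7 were higher in Saline than in Buffer, where 1.00% of all genes were. The same 7, with *Aldh1a3* and *Zic1* added, were below 0.65 in STZ against Saline, where 1.75% of all genes were. The summed level of the 13 was 129.27 FPKM for Buffer, 317.02 for Saline and 114.57 for STZ, and 0 of the 13 were without reads in any library. *Wfdc1*, the marker with the largest fold, had 20, 258 and 12 reads, a count ratio of 12.9 (8.19 to 21.5). *Aldh1a1*, a retinoic acid enzyme and the highest of the 13 by mean FPKM, had 1904, 6838 and 1904 reads. At 46.63, 167.7 and 46.53 FPKM it was the largest part of each sum. In Saline the summed level thus rested largely on *Aldh1a1*. In bulk RNA, the reads of *Aldh1a1* and the other markers cannot be assigned to ciliary, iris or neural retina cells. The fold against Buffer in Saline was 4.04 for *Gja1*, 2.50 for *Bmp4*, 2.32 for *Col9a1*, 2.01 for *Col9a2* and 1.85 for *Wls*. Of 7 fibroblast markers, 3 were higher in Saline than in Buffer (1.00% of all genes), *Col1a2*, *Lum* and *Ogn*, with *Ogn* at 10, 138 and 10 reads and *Col1a1* at 291, 316 and 250. The summed FPKM of the fibroblast list was 8.07, 11.52 and 5.5 in the same order. *Lum* and *Col1a2* were listed at 0 in Buffer, and *Dcn* in STZ. *Lum* had 18 reads in Saline and 3 in STZ. The counts of *Col1a2* were 59.48 in Saline and 104.09 in STZ, fractional in both, which leaves its folds uncertain. In Saline against Buffer, *Pdgfra* was at 0.915 and *Col3a1* at 0.945, slightly below 1, and *Col1a1* at 1.06 and *Dcn* at 1.27 were above it. *Pdgfra* and *Col3a1* were below 0.65 in STZ against Buffer, at 0.517 and 0.628, and *Col1a2* was above the upper threshold there, at 2.12.

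Among choroid plexus markers, which share *Ttr* with the RPE, 1 of 9 was higher in Saline than in Buffer (1.00% of all genes), *Folr1* with 3, 21 and 4 reads. *Igfbp2*, the highest by mean FPKM, had 1425, 1601 and 1006. Of 8 lens markers 4 were higher in Saline than in Buffer (1.00% of all genes) and 5 higher in STZ than in Buffer (2.25% of all genes). Their highest library was STZ, not Saline: the crystallin genes *Cryaa*, *Cryba1* and *Crygd* had folds of 3.11, 2.18 and 1.93 in Saline against Buffer and of 12.7, 21.7 and 15.6 in STZ against Buffer. Endothelial, striated muscle, corneal, Schwann cell and melanoblast, red blood cell and neural retina markers (7, 7, 4, 5, 5 and 9 genes, *Krt5* of the corneal list not matched) had 0 genes past a threshold in Saline against Buffer. Over all genes 1.00% were above and 0.429% below, so counts of 0 in lists this short lie near these shares and say little. In STZ against Buffer, *Cdh5* and *Cldn5* of the endothelium were lower, at 0.464 and 0.294, *Hba-a2* of red blood cells was lower at 0.649, and *Rcvrn* of photoreceptors was at 1.62. The values of *Hba-a2* and *Crygd* are uncertain, since close copies of these genes can share their reads. The highest genes of these lists by mean FPKM were *Kdr*, *Acta1*, *Krt15*, *Kit*, *Hba-a2* and *Crx*, with *Hba-a2* ahead of *Hbb* through the Saline library only. The part of the ciliary, iris, fibroblast and lens tissue in the pigment gene values was not tested.

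Outside all lists, the 8 genes whose profile over the 3 libraries was most like the median profile of *Tyr*, *Tyrp1*, *Dct*, *Pmel*, *Mitf* and *Ttr* were *Ltbp2*, *Itm2a*, *Col18a1*, *Fmod*, *Mfrp*, *Fbn1*, *Cldn1* and *Timm17b*. Likeness was the Euclidean distance, over 3 libraries, between centred log2(FPKM + 1) values and the median profile of these genes, which were those of the 10 that averaged 10 or more counts. *Mitf* and *Ttr*, with other patterns, are thus in the profile, and *Mlana* and *Slc45a2* are not. The search covered 12726 genes averaging 50 or more counts, a limit that *Ltbp2*, *Fmod*, *Mfrp* and *Cldn1* passed through their Saline counts only. Distances ran from 0.111 for *Ltbp2* to 0.225 for *Timm17b*, against a median of 0.839 over these genes. *Dct* and *Tyrp1* lay at 0.127 and 0.118, *Pmel*, whose contrast was larger, at 0.617, and *Ttr* at 1.01. *Ltbp2* had 10, 159 and 8 reads. *Mfrp*, a membrane protein of RPE and ciliary epithelium, had 44, 160 and 42 reads, and *Fbn1*, the microfibril protein fibrillin-1, had 349, 833 and 285. The counts of *Timm17b* were fractional.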

How the data were processed

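Total RNA of dissected P4 retinas was sequenced, 1 library each for Buffer, Saline and STZ. Per the study's methods and the submitters' processing notes, the authors checked reads with FastQC, trimmed poor 5′ ends, mapped them with TopHat2 (build rn6, up to 2 mismatches), discarded reads with several genomic locations and computed FPKM with a custom R script. Tool versions and the annotation are not given in the sources used here. The authors deposited FPKM, TPM and estimated counts per gene. The counts are fractional for 12.9% to 13.2% of genes and were rounded before intervals were taken. The table of the series and those of the single libraries were equal (largest difference 0). Totals between 21977843 and 22031249 reads per library set the precision, and reads carry no molecular identifiers, so intervals and the limit of 3 reads for a count of 0 cover counting error only.

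Folds were (FPKM + 1)/(FPKM + 1) with thresholds 1.54 and 0.65 over all 18425 genes, without a filter on low values. Count ratios carried exact Clopper-Pearson 95% intervals. Of the 10 genes, 6 had a mean of at least 10 counts. With 1 library per group no count model was fitted. The calculations were tested on simulated data. The genes and the 15 lists beside them were chosen with earlier results of these data known. From each list the text names genes past a threshold in Saline against Buffer or STZ against Buffer and an average of 10 or more counts, and its gene of highest mean FPKM. Likeness to the pigment genes was ranked over 3 libraries and the nearest 8 genes outside all lists were named. *Aldh1a3*, *Zic1*, *Sox9*, *Hbb*, *Lrat*, *Oca2*, *Slc24a5*, *Gpr143*, *Sox10*, *Rab38*, *Folr1*, *Lum*, *Dcn* and *Col1a1* were named after their values were seen. A result that this rule would name is not reported here. List genes were matched by symbol or, for a few, by RefSeq gene identifier. Promoters came from RefSeq (GRCr8), a build other than that of the files, and no coordinates were carried between them. The alternatives tried used 0.1 in place of 1 in the fold, stricter thresholds (2 and 0.5), TPM, CPM, scaling by edgeR 4.0.16 TMM or DESeq2 1.42.0 median-of-ratios factors, minimum means of 10 or 50 counts, and an interval that leaves out 1. Python 3.11.15, numpy 2.4.6, pandas 2.3.3, scipy 1.17.1, R 4.3.3 and matplotlib 3.10.9 were used.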

Additional observations from a re-analysis of the deposited data

How the results depend on the processing

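No paired analysis was possible because each group had 1 library, and for the same reason no library could be left out within a group. In Saline against Buffer, 5 of the 10 genes were higher, and 3 were with a minimum mean of 50 counts, which leaves out *Tyr* and *Mlana*. By the counting interval, 1 gene, *Ttr*, was lower in Saline than in Buffer, where the folds gave 0. In STZ against Buffer, the folds gave 0 higher genes, a pseudocount of 0.1 gave 1, *Mlana*, and the counting interval gave 1, *Dct*. No other count of the 10 genes moved by over 1.5 times under any alternative. The median log2 fold over the 10 genes kept its sign and ran from 0.47 to 1.26 in Saline against Buffer, from -0.94 to -0.36 in STZ against Saline and from 0.01 to 0.30 in STZ against Buffer. The ends farthest from 0 came from a pseudocount of 0.1 or from leaving out genes under 10 counts, both of which lift the pull toward 1 of genes with few reads. Of 130 recomputed folds of single genes, 0 reversed, and 126 moved on the log2 scale by less than the distance from the middle to the end of the count ratio's interval. The other 4 were those of *Tyr* and *Tyrp1* with a pseudocount of 0.1, 5.64 and 2.97 in Saline against Buffer and 0.163 and 0.357 in STZ against Saline. Depth limits *Mlana*, *Slc45a2*, *Rpe65* and *Best1*, which had at most 16 reads in any library.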
